A study of Mus musculus with 13 samples.

Results

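Of 38332 autosomal consensus CTCF sites in mouse embryonic limb, 1488 (3.88%) lay deep in gene deserts. A consensus site was a CTCF peak of wild-type whole limbs that overlapped CTCF peaks of distal and of proximal forelimb. A site counted as a desert site when its summit was more than 300 kb from the transcription start site (TSS) of every protein-coding gene and outside every protein-coding gene body in GENCODE M21. Of the remaining sites, 17763 were intergenic but closer to a TSS and 19081 lay in gene bodies. The choice among consensus sites used positions alone, and no cohesin peak, mutant peak or sequence entered it. Being a consensus site required a CTCF peak in all 3 wild-type tissues, so a lower bound on CTCF strength is built in for desert and other sites alike.

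Limb tissue of E12.5 embryos was profiled by ChIP-seq with 1 library per group, and 11 peak lists were used. In CD1 wild type, distal and proximal forelimbs were dissected apart: CTCF was profiled in each, RAD21 and SMC1 in the distal part. In B6CBAF1 wild type, whole forelimbs plus hindlimbs served for CTCF and for RAD21. Homozygous B6CBAF1 embryos of 4 alleles with deletions at the HoxD locus, obtained from heterozygous crosses, gave a CTCF list each: del(attP-Rel5)d9lac, del(1-13)d9lac, del(8-13)rXII and del(8-13)d11lac. Forelimbs and hindlimbs were used together for all of these but del(8-13)rXII, and for whole-limb RAD21. The allele del(8-13)rXII also gave a RAD21 list. Its CTCF library came from ChIPmentation, where adapters are put in by a transposase. It used forelimbs of 4 pooled embryos and 14 PCR cycles, so allele, assay and tissue cannot be told apart there. SMC1 chromatin was fixed for 25 minutes and CTCF chromatin for 10, while for RAD21 the labels allow either time. The limbs were dissected whole or by region, so each list averages over all cell types of the tissue. The 2 H3K27ac samples of the series were not analysed here.

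Read depth is unknown and no group has a replicate, so no p-value is given, and a missing peak means only that none was called. The autosomal lists held between 15549 peaks, for RAD21 in del(8-13)rXII, and 70418, for CTCF of the proximal forelimb. Peak strength is the authors' −log10 q and was ranked within a list only. Intervals of shares are Wilson 95% intervals, those of differences are Newcombe intervals, and both cover counting error only.

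Gene deserts are long stretches without protein-coding genes. Many of them flank genes for developmental transcription factors, signals or neuronal adhesion proteins, and some hold enhancers that act on those genes over long distances. CTCF recognises a long motif with its zinc fingers, and the motif has a direction. Cohesin, a ring built from SMC1, SMC3 and RAD21 with further subunits, extrudes loops of chromatin and is held up at CTCF, mostly when it meets the motif from one side. Peaks of RAD21 and SMC1 at a CTCF site therefore mark places where cohesin was crosslinked.

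Sequences of 3 kinds are shown. The first kind carried a single-copy CTCF motif. It is shown by the 3 motif-bearing desert sites with the strongest whole-limb CTCF peaks and, last, by a site between Slc4a3 and Epha4 that was among the 5 strongest for whole-limb RAD21. In these lines capitals mark the 19 bp that matched the CTCF matrix, lower case marks 5 flanking bases on each side, and the strand of the motif is read 5′ to 3′ (RefSeq, GRCm38.p6).
Between Adamts16 and Irx1, plus strand, chr13:71458574-71458592: catgtCGGCCTGTAGGGGGTGCAAgcgct
Between Caln1 and Galnt17, minus strand, chr5:130853528-130853546: gggagCTACCGGCAGGGGGCGCTCgctgc
Between Ubash3b and Sorl1, plus strand, chr9:41474798-41474816: agcatCTCCCACTAGGGGGAGCCCccgga
Between Slc4a3 and Epha4, plus strand, chr1:75925911-75925929: actcaGTGCCGACAGGGGGCGCCAcagct

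The second kind recurred in tandem gene clusters. It is shown by 3 sites of the T-cell receptor alpha and delta locus on chromosome 14, all on the plus strand, because the same 19 bp stood at each and none of these sites had a cohesin peak.
T-cell receptor locus, chr14:52810775-52810793: agaagTGGCCACAAGATGGCAGTAgcgca
T-cell receptor locus, chr14:53121892-53121910: agaagTGGCCACAAGATGGCAGTAgcgca
T-cell receptor locus, chr14:53505568-53505586: agaagTGGCCACAAGATGGCAGTAgtgca

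The third kind held no CTCF motif and lay on tandem copies of ATTCC. Here capitals mark 4 tandem copies of the unit, and lower case marks 3 flanking bases on each side. They are shown because the strongest desert peak in whole limb was one of them.
Between Nox3 and Arid1b, plus strand, chr17:4626325-4626344: tccATTCCATTCCATTCCATTCCatt
Between Nxph1 and Ndufa4, minus strand, chr6:10186389-10186408: tccATTCCATTCCATTCCATTCCctt

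Desert sites were sparse. The territory that met the rule covered 397.1 Mb, 16.6% of the autosomal sequence, and held 3.75 sites per Mb against 18.4 sites per Mb elsewhere. The median desert site was 469 kb from the nearest protein-coding TSS, and the farthest was 2544 kb away, between Pcdh20 and Pcdh9. The nearest other consensus site was a median of 58.2 kb away, against 12.3 kb for the remaining sites. By the annotation, 178 desert sites (12.0%) lay in the body of a long non-coding RNA or an unconfirmed transcript, and 150 (10.1%) were within 10 kb of the start of one. When such genes were counted as genes, 369 sites met the distance rule, so "desert" here refers to protein-coding genes.

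CTCF peaks in deserts were weaker than elsewhere in all wild-type lists. The median −log10 q in the whole-limb list was 12.8 (quartiles 6.64 and 29.1) at desert sites and 20.8 (8.75 and 46.0) at the other consensus sites. The median percentile within the list was 42.1 against 55.1 in whole limb, 62.1 against 71.9 in distal forelimb and 63.8 against 73.3 in proximal forelimb. All consensus sites were split into 4 strength classes of equal size by whole-limb −log10 q, from class 1 (weakest) to class 4 (strongest). Of the desert sites, 541 (36.4%) fell in class 1, 417 in class 2, 341 in class 3 and 189 (12.7%) in class 4. The sequence around them was also poorer in G and C: the median GC content of the 1 kb around the summit was 41.1% against 46.2%.

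A CTCF motif stood within 50 bp of the summit at 1165 of 1488 desert sites (78.3%, 76.1 to 80.3), against 85.0% of all consensus sites. The difference from the other sites was −6.99 percentage points (−9.19 to −4.94). Where a motif was present, it held a CpG dinucleotide at 31.2% of the desert sites and at 44.7% of the others, a difference of −13.5 points (−16.2 to −10.8). CpG matters for CTCF because methylation of the motif can block its binding, and methylation was not measured. The motif was soft-masked as a repeat at 17.3% of desert sites against 21.1%. The most frequent 19 bp in the whole set, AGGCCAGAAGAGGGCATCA, stood at 11 desert sites and 273 others, always soft-masked. At the 11 desert sites no whole-limb RAD21 peak was found, while 68 of the 273 others had one. In any cohesin list a peak was found at 3 of the 11 and 111 of the 273. These desert sites were weaker, with a median whole-limb −log10 q of 5.64 against 11.6.

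**Figure D1:**
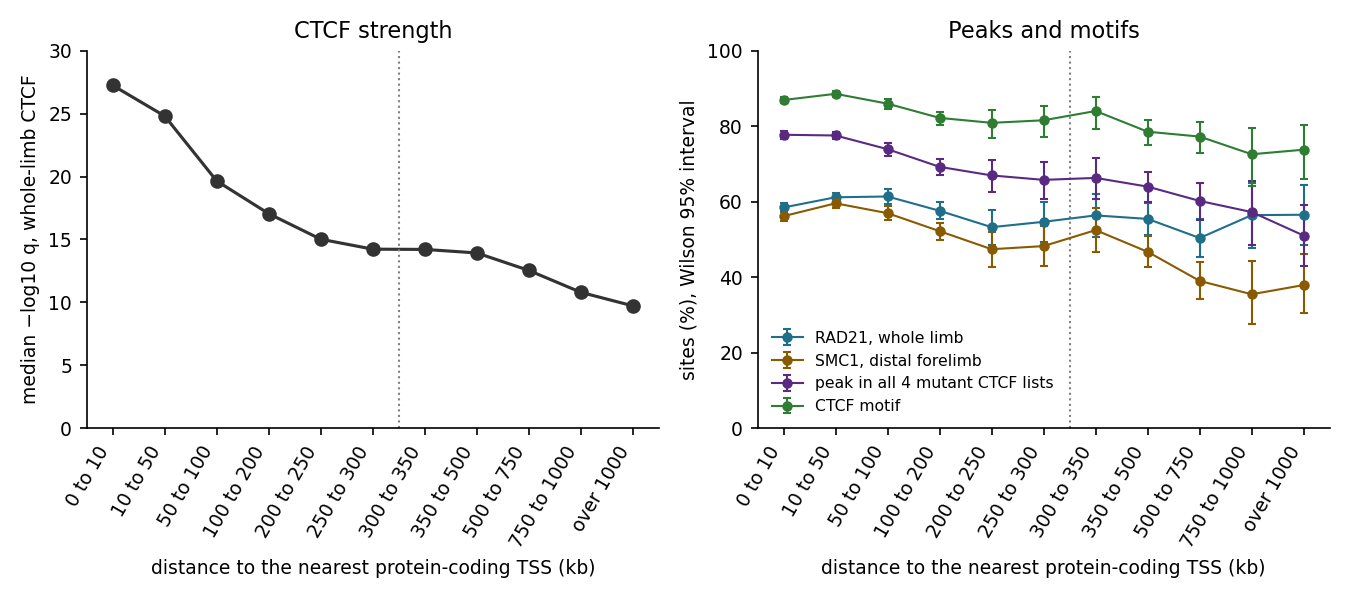
Median whole-limb CTCF −log10 q (left) and the share of sites with a peak or motif (right, Wilson 95% bars) for intergenic consensus sites, by distance to the nearest protein-coding TSS in kb; sites right of the dotted line are the desert sites. Median strength was 27.3 within 10 kb and 9.72 beyond 1000 kb, while the RAD21 share was 58.5% and 56.6% in the same bins.

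Within the deserts, CTCF strength was lower at larger distances, while the whole-limb RAD21 share was alike in the nearest and farthest bins. From the 282 sites at 300 to 350 kb to the 145 sites beyond 1000 kb, the median −log10 q went from 14.2 to 9.72. The share with a peak in all 4 mutant CTCF lists went from 66.3% to 51.03%, and the share with SMC1 from 52.5% to 37.9%. The share with whole-limb RAD21 was 56.4% in the first of these bins and 56.6% (48.4 to 64.4) in the last, with 50.4% (45.4 to 55.3) at 500 to 750 kb between them. Distal forelimb RAD21 was at 40.1% (34.5 to 45.9) in the first bin, 32.8% (28.3 to 37.6) at 500 to 750 kb and 36.6% (29.2 to 44.6) in the last. On either side of the 300 kb limit values were close: 54.7% of sites at 250 to 300 kb and 56.4% of those at 300 to 350 kb had RAD21. The sites just inside the limit were weak ones next to Sox6, Tmem182 and Anxa10 (−log10 q 4.84, 8.73 and 4.68). Those just outside it were nearest to Slc30a10, Myo3a and Reep3 (20.1, 21.3 and 7.02).

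The 1488 sites lay in 414 deserts, meaning gaps between protein-coding gene bodies. The gaps had a median length of 1023 kb. The shortest measured 24.7 kb, between long genes whose starts lay far off, and the longest 4668 kb. A single desert site was found in 122 of them and 5 or more in 108. The 10 fullest held 203 sites (13.6%). The fullest gap ran from the olfactory receptor gene Olfr1507 to Dad1 and held 63. Among those that followed were Tmem132b to Tmem132c with 27, Ywhaq to Gm10330 with 20, Auts2 to Castor2, Sall1 to Tox3 and Med13l to Tbx3 with 13 each, Mki67 to Mgmt with 12, and Cdh6 to Cdh9 and Kcnj2 to Sox9 with 11 each.

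**Figure D2:**
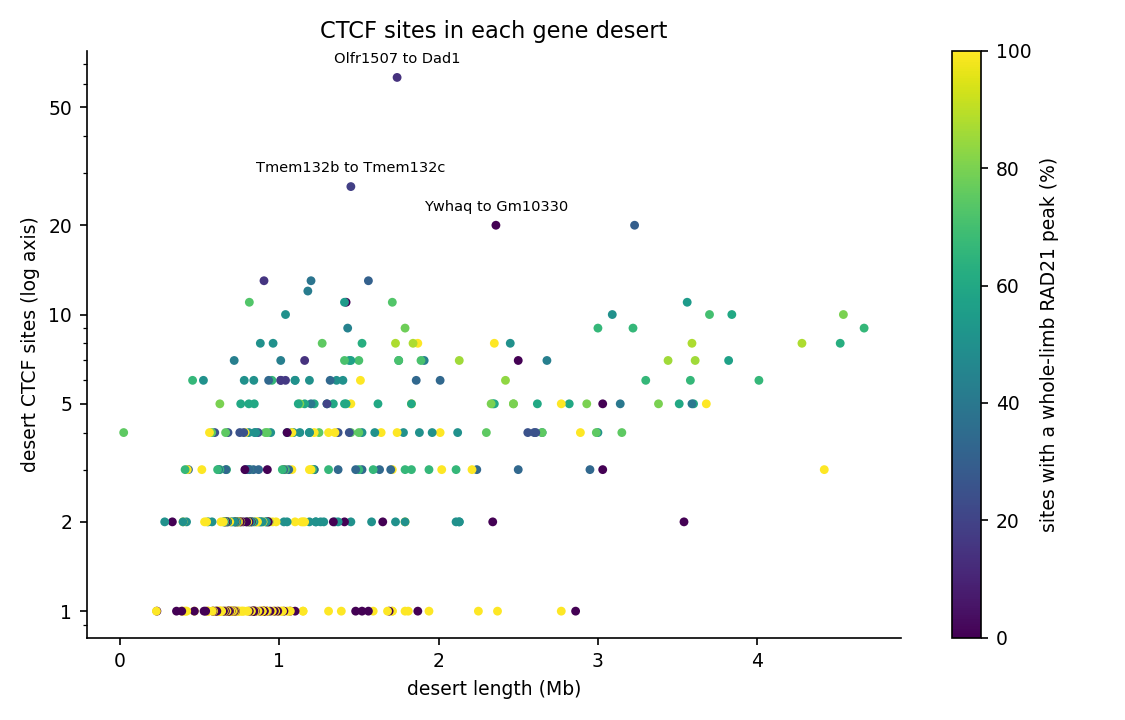
Desert CTCF sites per desert (log axis) against the length of the desert in Mb, 1 point for each of the 414 gaps, coloured by the percentage of its desert sites with a whole-limb RAD21 peak. The 3 labelled gaps hold 63, 27 and 20 sites and have low RAD21 shares, down to 0 sites between Ywhaq and Gm10330.

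Genes for cell adhesion and axon guidance were the list found most often beside these deserts. In all, 756 of 20807 autosomal protein-coding genes (3.63%) flanked a desert that held a site. Of the adhesion and guidance receptors, 61 of 191 did (31.9%, 25.7 to 38.9). Among them were the type II cadherins Cdh11 (15 sites beside it), Cdh9 (15) and Cdh8 (14), the synaptic adhesion protein Flrt2 (16), the ephrin receptor Epha7 (14) and the latrophilin Adgrl2 (13). Cdh8 and Cdh11 flank the same gap, as do Cdh6 and Cdh9, so the counts share sites. The list's flanking members were long genes, with a median of 410 kb against 107 kb for the whole list. The part of gene length in these shares was not tested.

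Limb patterning genes flanked a desert in 13 of 56 cases (23.2%, 14.1 to 35.8). Members with the most sites were Sox9 (17), which directs cartilage formation, the cadherin gene Cdh11 (15), the zinc-finger genes Sall1 (13) and Sall3 (11), and Tbx3 (13), a T-box gene needed for posterior digits. Bmp2, a bone morphogenetic protein, had 6. Developmental transcription factors did so in 41 of 260 cases (15.8%), with Zeb2 (10) and Bcl11a (9) next after genes named above. Secreted signals did in 9 of 111 (8.11%), led by the axon repellent Slit2 (7), Bmp2 and the joint factor Gdf6 (6 each). Ion channels and neurotransmitter receptors did in 24 of 256 (9.38%), led by the potassium channels Kcnj2 (11) and Kcna4 (9). Housekeeping genes did in 12 of 348 (3.45%), near the share of all genes. Olfactory and vomeronasal receptors did in 2 of 1472 (0.136%). The lists share members, so their shares are not independent. Of the limb genes beside deserts, Cdh11, Cdh2 and Epha4 were also in the adhesion list. Sox9, Sall1, Sall3, Tbx3, Hand2, Meis1, Meis2 and Pax3 were also in the transcription factor list, and Bmp2 among the signals. These lists describe neighbours, and no site was tied to a target gene.

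Around Sox9 most desert sites had whole-limb RAD21, and median CTCF strength was above the 12.8 of all desert sites. Whole-limb RAD21 stood at 54.5% of all desert sites and 56.1% of all consensus sites. In strength class 3, where both medians around Sox9 fall, it stood at 82.1% of desert sites and 71.9% of the others. The counts of single gaps given here were not matched for strength. The 1.71 Mb gap from Kcnj2 to Sox9, onto which the start of Sox9 faces, held 11 with a median −log10 q of 30.7. Of these, 8 had whole-limb RAD21, 8 had SMC1 and 9 had a peak in all 4 mutant CTCF lists. On the other side of Sox9, the 0.457 Mb gap to Slc39a11 held 6 desert sites with a median of 41.0, and 4 had RAD21. Its strongest site, in the long non-coding RNA gene 2610035D17Rik, had a −log10 q of 71.3 for CTCF, 185 for whole-limb RAD21, 113 for distal RAD21 and 27.4 for SMC1. The 8 desert sites between Celf2 and Gata3, a zinc-finger gene, all had whole-limb RAD21, and so did 6 of the 7 between Lcorl and Slit2. Shares were lower in the gaps beside Tbx3 and Sall1: 2 of 13 sites between Med13l and Tbx3 and 5 of 13 between Sall1 and Tox3 had RAD21, with a median −log10 q of 10.8 and 10.7. Between Sall3 and Galr1, 6 of 11 had RAD21. The 6 sites beside Bmp2 (2 with RAD21, median 8.91) and the 6 beside Gdf6 (1 with RAD21, median 9.51) were also weak.

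The fullest gap was not a gene desert in the usual sense. It spans the T-cell receptor alpha and delta locus, whose variable segments are annotated as segment genes, not as protein-coding genes. Together with immunoglobulin loci, antigen receptor loci held 90 desert sites (6.05%), against 0.106% of the other consensus sites. Variable segments are rearranged only in lymphocytes, and CTCF is known to bind beside many of them.

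At the T-cell receptor locus CTCF was strong but cohesin was scarce. Its 63 sites had a median −log10 q of 24.6, above the 12.8 of all desert sites. Only 9 had whole-limb RAD21 (against 56.1% of all consensus sites), 2 distal RAD21 (against 39.3%) and 8 SMC1 (against 52.8%). Of the 60 sites with a motif, 52 had it on the plus strand and 8 on the minus strand. They used 26 distinct 19-bp motifs, and 50 of the 60 shared theirs with another site of the gap. The 4 strongest desert sites without any cohesin peak were all here (−log10 q 90.8, 90.6, 90.02 and 77.9 in whole limb, and 182, 173, 234 and 69.7 in distal forelimb). The fifth lay between Frk and Amd2 (59.8). CTCF was called at 41 of the 63 in del(8-13)rXII, 59 in del(1-13)d9lac, 62 in del(attP-Rel5)d9lac and all 63 in del(8-13)d11lac. The shares over all desert sites were, in the same order, 68.3%, 81.9%, 86.0% and 97.2%. Over all consensus sites they were 77.2%, 87.4%, 90.5% and 98.8%. The median of this locus falls in strength class 3, where del(8-13)rXII had a peak at 96.2% of desert sites. Some of its sites were weaker, with −log10 q down to 6.09 among copies of its most frequent motif. In class 1 the del(8-13)rXII share of desert sites was 37.2%, so the 41 of 63 is not matched for strength.

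Copied motifs also marked 2 gaps on chromosome 12. Between Ywhaq and Gm10330, 13 of 16 motif sites shared their 19 bp with another site of the gap. The most frequent, CGGACACTAGAGGGCGCAG, stood at 4 of them and at 14 consensus sites in all. Of the 20 desert sites there none had RAD21 in whole limb or distal forelimb (against 56.1% and 39.3% of all consensus sites). SMC1 was called at 1 of them (against 52.8%). In a nearby gap of the same chromosome, from 5730507C01Rik to Gm21863, none of 11 sites had any cohesin peak, and TGTCCTGTAGGGGGCGAGC stood at 3. Over all deserts 90 of 1165 motif sites (7.73%) shared a motif within their gap, 28 of them outside receptor loci. Among the other intergenic sites the share was 1.05%. Reads from near-identical copies can be placed on the wrong copy or dropped, and what the authors did with such reads is not given in the sources used here.

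Most desert sites had cohesin in at least 1 list. Whole-limb RAD21 was present at 811 of 1488 (54.5%, 52.0 to 57.0), against 56.1% of all consensus sites. The difference from the other sites was −1.62 points (−4.21 to 0.948). Distal forelimb RAD21 was present at 550 (37.0%, against 39.3% of all; difference −2.39, −4.86 to 0.143). SMC1 was present at 655 (44.0%, against 52.8% of all; difference −9.18, −11.7 to −6.60). A peak in all 3 cohesin lists was found at 459 desert sites (30.9%, against 35.7% of all), and in none at 592 (39.8%, against 36.5%). Both distal lists are shorter than the whole-limb RAD21 list, so the 3 shares are not levels that can be set against each other. Counting only cohesin peaks with a −log10 q of at least 10, the shares at desert sites were 43.4%, 23.9% and 22.3%.

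**Figure D3:**
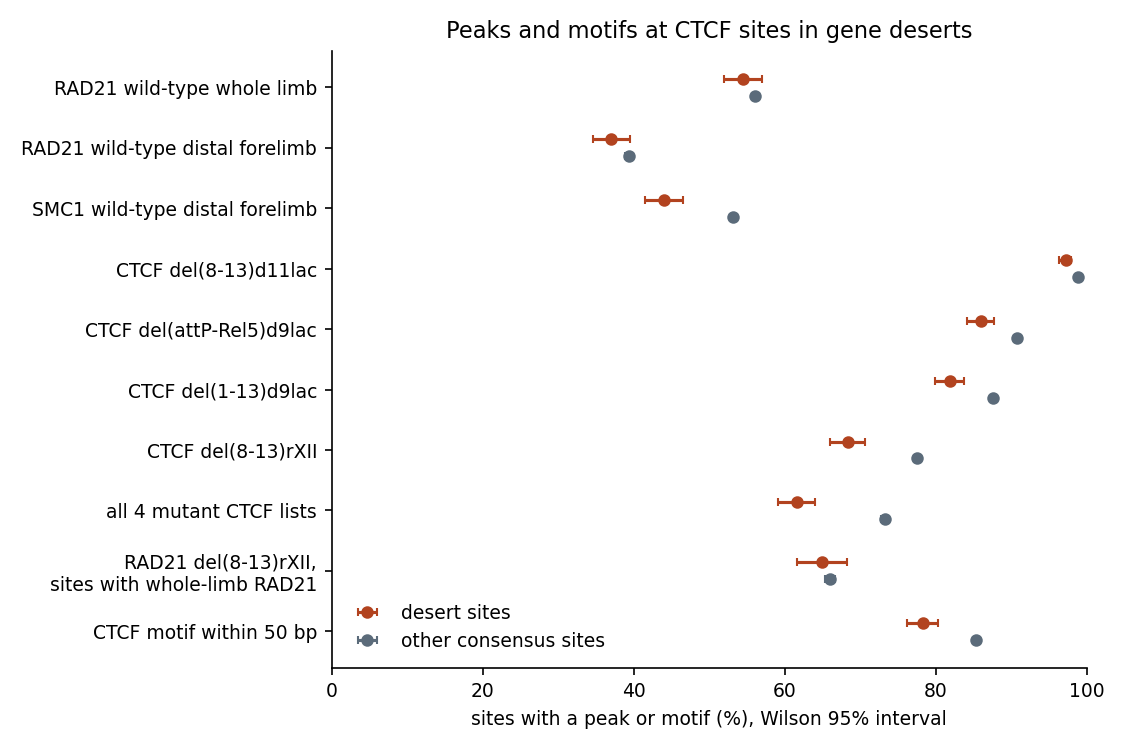
Percentage of sites with a peak in each list, or with a CTCF motif, at the 1488 desert sites and at the other 36844 consensus sites, with Wilson 95% intervals. Desert sites were lower for SMC1, for all mutant CTCF lists and for the motif, and their intervals met those of the other sites for RAD21.

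In CTCF strength classes 1 to 3, desert sites had whole-limb RAD21 more often than the other sites, and in class 4 the shares were alike. Of the 36844 other sites, 19081 lay in gene bodies. In class 1, 27.7% of desert sites had whole-limb RAD21 and 20.0% of the others, a difference of 7.69 points (3.99 to 11.7). In class 2 the shares were 50.4% and 41.3% (9.08, 4.19 to 13.96), and in class 3 they were 82.1% and 71.9% (10.3, 5.74 to 14.1). In class 4 they were 90.5% and 90.2% (0.316, −4.75 to 3.79). Distal forelimb RAD21 gave the same order, with 29.0% against 20.7% in class 2 and 66.6% against 51.7% in class 3. For SMC1 the shares were 11.7% against 12.4%, 41.3% against 37.0%, 75.1% against 71.2% and 86.8% against 91.0%, so desert sites were not higher in every class. Classes are broad, and within them desert sites were not made equal to the others in strength. With lists of equal length the class 3 difference was 16.4 points.

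The RAD21 share of the strong desert sites was higher once sites in receptor loci and on short tandem repeats were left out together. This step does not show the part of either group. RAD21 then stood at 86.1% of 310 desert sites in class 3 and at 96.8% of 154 in class 4, against 71.8% and 90.2% of the others. This subset was chosen after the data were seen. Among sites with a motif it gave 30.5% against 19.7%, 52.9% against 42.1%, 87.4% against 72.8% and 98.0% against 90.7% from class 1 to class 4. The share also differed among other intergenic sites by distance: in class 3 it was 69.9% within 10 kb of a TSS, 75.4% at 10 to 50 kb, 77.8% at 50 to 100 kb, 80.2% at 100 to 300 kb and 82.4% at 300 to 500 kb. In gene bodies it was 69.1%. Desert sites were thus close to intergenic sites at 100 to 300 kb in that class. In classes 1 and 2 the share at 100 to 300 kb was 22.2% and 46.5%, against 27.7% and 50.4% of all desert sites. In class 4 it was 96.5% (94.5 to 97.8), above the 90.5% (85.5 to 93.9) of all desert sites. In class 4 the 70 sites beyond 500 kb had 82.9% (72.4 to 89.9) and those at 300 to 500 kb 94.96% (89.4 to 97.7). With the limit set at 500 kb, the difference from other sites of class 4 was −7.36 points.

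**Figure D4:**
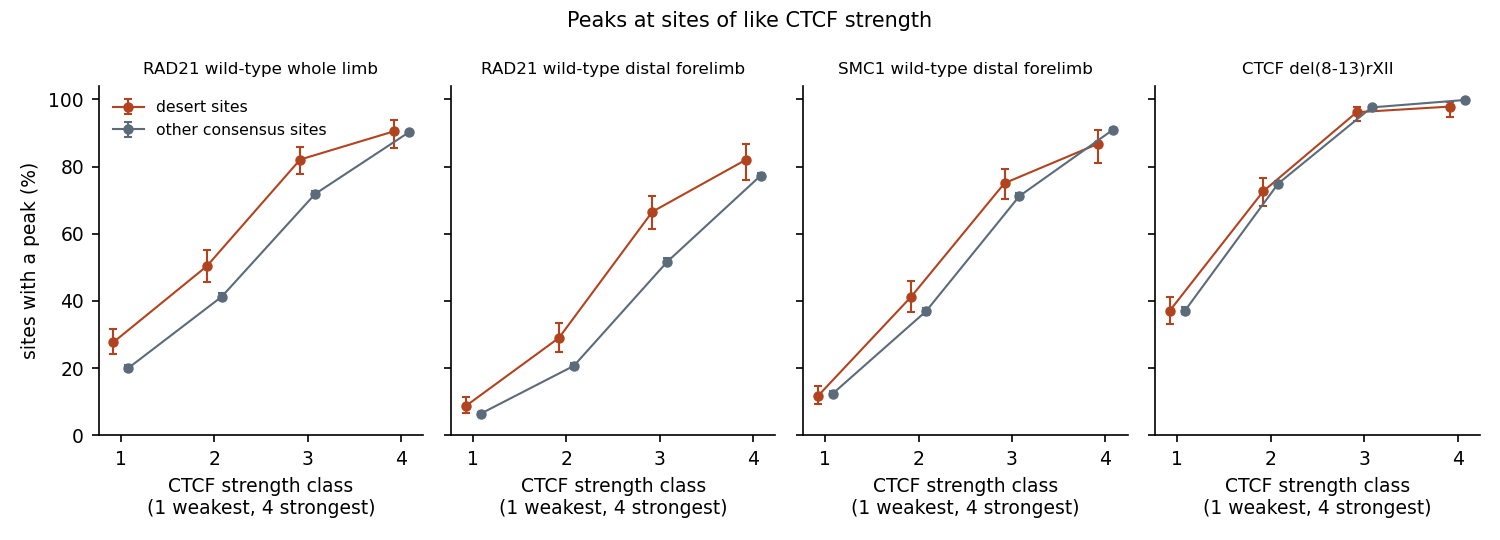
Percentage of sites with a peak in 4 lists, by class of whole-limb CTCF strength, at desert and other consensus sites (Wilson 95% bars). RAD21 shares of desert sites were higher in classes 1 to 3, whereas CTCF in del(8-13)rXII gave 72.7% and 74.96% in class 2 and 96.2% and 97.6% in class 3.

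Of the 5 strongest RAD21 peaks in deserts, 1 lay at a site that was also among the 10 strongest for CTCF. The highest stood between 1700008P02Rik and Pkia, an inhibitor of protein kinase A, with a RAD21 −log10 q of 207 in whole limb, 63.9 in distal forelimb and 93.6 in del(8-13)rXII. CTCF there was 61.7 in whole limb, and SMC1 13.4. The next was between the adhesion receptor gene Adgrl3 and Tecrl, with RAD21 at 192, 103 and 84.2 in the same lists and whole-limb CTCF at 28.3. Then came the Sox9 to Slc39a11 site and one between Slc4a3 and Epha4, the ephrin receptor gene whose surroundings are known from digit malformations (RAD21 174, 82.1 and 80.9, CTCF 88.7). The fifth, between Adamts16 and the homeobox gene Irx1 (RAD21 172, 101 and 105), was also the strongest desert site with a motif. Its CTCF −log10 q was 187 in whole limb, 312 in distal and 299 in proximal forelimb. In del(8-13)rXII it was 30.8, in del(8-13)d11lac 313, and in the d9lac alleles 186 for del(attP-Rel5)d9lac and 167 for del(1-13)d9lac.

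All of the 10 strongest desert sites had cohesin in all 3 lists, as did 30.9% of all desert sites and 35.7% of all consensus sites. Of these 10, 7 had a motif. Besides the Irx1 site they lay between Caln1 and Galnt17 (whole-limb CTCF 164, RAD21 158), Ubash3b and Sorl1 (142 and 151), Tle4 and Psat1 (128 and 116), Zfhx3 and Pmfbp1 (126 and 154), Glrx3 and Tcerg1l (116 and 136), and Matn1 and Ptpru (115 and 93.7). All 7 had a peak in each of the 4 mutant CTCF lists. The other 3 of the 10 had no motif. Of these, the site between Nox3 and Arid1b lacked a peak in del(8-13)rXII, and the others had one in all 4 lists. In class 4 as a whole, 177 of 189 desert sites and 8992 of 9390 others had cohesin in at least 1 list.

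The 5 sites farthest from any protein-coding start all had whole-limb RAD21, against 82 of 145 (56.6%) beyond 1000 kb and 56.1% of all consensus sites. The 2 farthest were both in the 4.54 Mb gap between Pcdh20 and Pcdh9, protocadherin genes of neural adhesion. At 2544 kb from the nearest TSS, CTCF was 3.75 in whole limb, at percentile 11.6 of that list. It was 32.9 in distal forelimb (percentile 55.9) and 30.96 in proximal forelimb (percentile 57.8). Both forelimb values were below the lower quartiles of all consensus sites in those lists (33.3 and 31.8). RAD21 was 62.8 in whole limb. At 2440 kb, a site without a motif had CTCF at 89.1 and RAD21 at 44.0. The others lay between Celf4 and Pik3c3 (2195 kb, CTCF 21.96, RAD21 90.5), Cntnap5b and Cdh20 (2140 kb, 7.66 and 26.4) and Tenm3 and Aga (2124 kb, 9.82 and 7.42).

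Most neighbouring motifs in deserts pointed the same way. Of 655 neighbouring pairs of desert sites with motifs in the same gap, 389 (59.4%, 55.6 to 63.1) were on the same strand. The share was 55.8% (54.6 to 56.9) for other intergenic pairs and 52.3% (51.7 to 52.9) for all consensus pairs on a chromosome. The T-cell receptor run, with 52 plus-strand motifs, is part of the first count. Convergent pairs, whose motifs point towards each other, made up 19.1% in deserts and 18.5% of other intergenic pairs. In 251 deserts with at least 2 motif sites, the outermost motifs both pointed inwards in 50 (19.9%) and both outwards in 60 (23.9%).

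Fewer desert sites than other sites had a peak in each of the 4 mutant CTCF lists. A peak was called at 1447 desert sites in del(8-13)d11lac (97.2%, 96.3 to 98.0, against 98.8% of all consensus sites). The count was 1280 in del(attP-Rel5)d9lac (86.0%, against 90.5%), 1219 in del(1-13)d9lac (81.9%, against 87.4%) and 1017 in del(8-13)rXII (68.3%, against 77.2%). The differences from the other sites were −1.57, −4.68, −5.69 and −9.20 points, and none of their intervals reached 0. In all 4 lists a peak was found at 917 (61.6%, against 72.8% of all), and 24 desert sites had none in any (1.61%, against 0.751% of all). Missing sites were weak: the 24 had a median −log10 q of 4.09 and the 917 one of 23.4. The largest single pattern among missing sites was absence from del(8-13)rXII alone, at 222 sites with a median of 8.20. Without matching for CTCF strength, 80.0% of desert sites with whole-limb RAD21 and 39.6% of those without it had a peak in all 4 lists. The shares of the others were 89.6% and 52.4%. Both features were more frequent at stronger desert sites. From class 1 to class 4, whole-limb RAD21 went from 27.7% to 90.5% and a peak in all 4 lists from 24.4% to 97.9%. A link between cohesin and retention at like strength was not tested. Counting only peaks with a −log10 q of at least 10, del(8-13)rXII held 20.2% of desert sites.

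At like strength the differences for single lists in classes 1 and 2 were small. A peak in all 4 lists was found at 24.4% of class 1 desert sites and 24.85% of the others. In class 2 the shares were 65.2% (60.5 to 69.6) and 70.06% (69.1 to 71.0), so desert sites were lower there. In class 1 del(8-13)rXII kept 37.2% of desert sites and 37.1% of the others, and in class 2 it kept 72.7% and 74.96%. In the same classes del(1-13)d9lac kept 58.6% against 58.9% and 89.2% against 91.4%, and del(attP-Rel5)d9lac kept 66.4% against 67.5% and 93.8% against 95.2%. The list of del(8-13)d11lac was lower at desert sites of class 1, with 93.2% against 95.7% (95.3 to 96.1). In classes 3 and 4 none of 341 and none of 189 desert sites lacked a peak in del(8-13)d11lac, del(1-13)d9lac or del(attP-Rel5)d9lac (lower limits of the shares 98.9% and 98.0%). In del(8-13)rXII 13 lacked one in class 3 and 4 in class 4. The share with a peak there was 96.2% (93.6 to 97.8) of desert sites against 97.6% of the others in class 3, and 97.9% (94.7 to 99.2) against 99.8% (99.7 to 99.9) in class 4. In 137 of the 414 deserts every desert site had a peak in all 4 mutant lists, and many of these held a single site. Among the 292 deserts with 2 or more desert sites, 58 met this.

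Outside del(8-13)rXII, the desert sites without a peak in an allele were of modest strength. For del(8-13)d11lac and for del(1-13)d9lac the site between Tusc1 and Caap1 (whole-limb CTCF 15.1, distal 16.8, proximal 11.6) was missing in both and in del(8-13)rXII, and it had a peak of 7.65 in del(attP-Rel5)d9lac. The strongest missing site of del(1-13)d9lac lay between Nectin3 and Dppa4 (18.9), with 41.7 in del(8-13)d11lac and 14.96 in del(attP-Rel5)d9lac. It was followed by sites between Kcnj3 and Nr4a2 (17.5), Tecrl and Epha5 (17.0) and Adgrl2 and Adgrl4 (16.8). Those of del(attP-Rel5)d9lac lay between Kcnh7 and Fign (19.1), Pcdh20 and Pcdh9 (14.5), Gpm6a and Adam29 (14.3), Zeb2 and Acvr2a (12.9) and Ddx18 and Dpp10 (12.8). For del(8-13)d11lac the second was between Flrt2 and Galc (10.5), which was also missing in both d9lac alleles and yet had 87.8 in del(8-13)rXII. None of these sites reached class 4, and Sorcs1 to Ins1 (9.29) was the one among them without a peak in any of the 4 lists.

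RAD21 in del(8-13)rXII was found at 527 of the 811 desert sites with whole-limb RAD21 (65.0%, 61.6 to 68.2), against 66.0% of all such consensus sites. The difference from the others was −1.02 points (−4.43 to 2.25). From CTCF class 1 to class 4 the share at desert sites was 39.3%, 54.3%, 73.9% and 86.0%, and at the others 33.4%, 48.4%, 66.2% and 80.7%. The list of this allele held 15549 autosomal peaks and that of wild type 32465, so a lower overall number was found everywhere.

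Near the HoxD cluster, where the alleles carry their deletions, 7 of 91 consensus sites within 2 Mb were desert sites, and the 5 of them with a motif had it on the minus strand. On the centromeric side a weak site between Atp5g3 and Lnpk (whole-limb 5.91) was called in del(attP-Rel5)d9lac (5.02) and del(8-13)d11lac (18.6) and in no cohesin list. The other 6 lay in the gap between Mtx2 and Hnrnpa3 on the telomeric side.
Between Mtx2 and Hnrnpa3, minus strand, chr2:75138087-75138105: cagggTGTCCACTAGGGCGCGCTGtgaga
Between Mtx2 and Hnrnpa3, minus strand, chr2:75151169-75151187: cttctTCACCACCAGGTGGCGCCCtttgt
Between Mtx2 and Hnrnpa3, minus strand, chr2:75152688-75152706: gcctcAGTCCACTAGAGGGCGCTTtccca
Between Mtx2 and Hnrnpa3, minus strand, chr2:75312431-75312449: tgcgaTAGCCGCTGGATGGCACTGttgca

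These 4 motif sites carried a CTCF peak in every list. In the order above, whole-limb CTCF was 32.2, 29.8, 32.7 and 35.9. The list of del(8-13)d11lac gave 125, 107, 135 and 116, and that of del(8-13)rXII 15.5, 5.63, 14.6 and 9.36. The list of del(attP-Rel5)d9lac gave 44.2, 25.2, 54.5 and 60.8, and that of del(1-13)d9lac 55.1, 28.6, 46.3 and 29.5. Cohesin was uneven: RAD21 was 87.9 in whole limb at the first and 39.9 at the fourth, 4.85 at the third and not called at the second, while SMC1 was called at all 4. In del(8-13)rXII RAD21 was called at the first (24.2) and the fourth (14.3). The 2 sites without a motif, with whole-limb CTCF at 12.1 and 15.7, had no cohesin peak, and the first of them had no peak in del(8-13)rXII.

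A tandem repeat with at least 4 ATTCC units on either strand, within 50 bp of the summit, underlay 5 desert sites (0.336%, against 0.0678% of all consensus sites). They lay between Nox3 and Arid1b, Nxph1 and Ndufa4, Trim52 and Slitrk1, Bcl11a and 5730522E02Rik, and Cdh26 and Cdh4. Their whole-limb −log10 q was 214, 56.6, 53.8, 52.9 and 15.4, and the first was the strongest desert site of all. All 5 had a peak in the other 3 mutant lists and none in del(8-13)rXII, which allows a share of up to 43.5% there. The absence was not particular to deserts: 0 of all 26 consensus sites with this repeat had a peak in del(8-13)rXII (upper limit 12.9%). The 4 desert sites of class 4 that lacked a peak in del(8-13)rXII were the first 4 of these, so the list lacked no strong desert site with a CTCF motif in that class. None of the 5 had a motif, and 3 had no cohesin peak, as did 18 of all 26. At the Arid1b site, with 67 units in the peak, CTCF was 355 in distal forelimb while RAD21 was 5.99 in whole limb and SMC1 4.96. Whether CTCF itself occupies the repeat was not tested.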

How the data were processed

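The peak lists were deposited by the authors as narrowPeak files on mm10. Per the submitters' processing notes the tools were cutadapt, Bowtie2 and MACS2, and their versions and settings are not given in the sources used here. In the narrowPeak layout, each deposited peak carries a score, a fold enrichment, a −log10 p and a −log10 q. Replicates, input libraries and read totals were not used here.

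Overlaps of at least 1 bp between merged autosomal intervals counted as a peak being present. Strength was the −log10 q, ranked within a list, and the 4 strength classes were cut at 8.73, 20.4 and 45.3. Genes came from GENCODE M21 and sequence from the RefSeq copy of GRCm38.p6. A 19-bp CTCF matrix was learnt from the 2000 strongest sites outside deserts. A motif was a score of at least 6.59 bits within 50 bp of the summit on either strand, a level reached by 5% of windows 2 kb away. It was tested on simulated data. Work was done in Python 3.11.15 with numpy 2.4.6, pandas 2.3.3, scipy 1.17.1 and matplotlib 3.10.9.

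Sites were named by rule: the 10 strongest, the 5 farthest from a gene, the 5 strongest without a peak in each mutant list, without cohesin and by RAD21, those within 2 Mb of HoxD, the 10 fullest deserts and up to 6 genes per list. Other gaps beside limb genes, and the repeat and shared-motif sites, were named after their values were seen. Members and lists were chosen with earlier results of these data known. Alternatives covered overlap, strength level, list length, distance limit, gene classes and motif settings. Results on 1 gap and on 1 kind of tandem repeat are not reported here.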

Additional observations from a re-analysis of the deposited data

How the results depend on the processing

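Of 149 values under 12 alternative settings, 107 stayed within the counting interval or within 1.5 times the count, 41 moved and 1 reversed. Requiring 50% of a site to be covered gave SMC1 at 40.5% and CTCF in del(8-13)rXII at 55.9%. With a −log10 q of at least 10, shares were 43.4% for whole-limb RAD21, 23.9% for distal RAD21, 22.3% for SMC1, 92.3% for del(8-13)d11lac, 20.2% for del(8-13)rXII, 52.6% for del(1-13)d9lac, 65.4% for del(attP-Rel5)d9lac and 54.6% for RAD21 in del(8-13)rXII at sites with whole-limb RAD21. Cut to equal length (35091 peaks for CTCF, 15549 for RAD21), lists gave 38.4% for whole-limb RAD21, 80.1% for del(8-13)d11lac, 74.7% for del(1-13)d9lac, 77.1% for del(attP-Rel5)d9lac, 85.3% for RAD21 in del(8-13)rXII and a class 3 RAD21 difference of 16.4 points. A limit of 200 kb gave 2275 sites at 4.31 per Mb. A limit of 500 kb gave 656 sites in 198 deserts at 2.77 per Mb, with distal RAD21 at 33.7%, SMC1 at 38.1%, del(8-13)rXII at 64.5%, del(1-13)d9lac at 79.9%, RAD21 in del(8-13)rXII at 61.1%, a median CTCF −log10 q of 11.2 and a motif at 75.6%. The class 4 RAD21 difference there was −7.36 points, of opposite sign to the 0.316 points at 300 kb, and the cause was not tested. Counting lncRNA classes as genes left 369 sites in 169 deserts at 2.59 per Mb, with del(8-13)rXII at 65.6%, del(1-13)d9lac at 78.9%, del(attP-Rel5)d9lac at 82.9%, a motif at 74.0% and RAD21 differences of 15.2 (class 3) and 4.30 points (class 4). Leaving out receptor loci, a setting chosen after seeing the data like that without repeat arrays, gave 14.6 and 5.69 points. The motif share was 80.4% within 100 bp and 65.8% at the level that 1% of control windows reach. No paired analysis was possible because each group has 1 library and no result comes from a test. With 1 library per group and unknown depth, a missing peak cannot be told apart from a weaker library.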
